A study of Drosophila melanogaster with 3 samples.

Results

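The nuclear genes of oxidative phosphorylation were described by where tagged Broad was recovered at their promoters. Members were the protein-coding nuclear genes whose symbols begin with ND- (complex I), SdhA to SdhD (complex II), UQCR- (complex III), COX4 to COX8 (complex IV) or ATPsyn (complex V, the ATP synthase), which gave 87 of 13973 nuclear protein-coding genes. Of these, 63 carry the plain symbol of a subunit and are called subunit genes here. The other 24 carry a final L, L1 or L2 on the symbol of a subunit and are called L duplicates. The members were chosen by symbol and not by any measured value. The data were lists of regions from chromatin immunoprecipitation with an antibody against GFP, in whole wandering third-instar larvae of Drosophila melanogaster, both sexes together. The transgenic line stably carries the br-RE form of Broad with GFP at its C terminus. All samples belong to 1 group of 3 biological replicates, numbered 2, 3 and 4, so no condition was set against another. Fragments were sonicated to 200 to 800 bp per the labels, larval age and read depth are unknown, and the control library was not analysed here.

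Oxidative phosphorylation takes place in the inner mitochondrial membrane. Complexes I and II pass electrons from NADH and succinate to ubiquinone, complex III passes them to cytochrome c, complex IV passes them to oxygen, and the ATP synthase uses the proton gradient that complexes I, III and IV build. Most subunits are encoded in the nucleus and the rest in the mitochondrial genome. Broad is a family of zinc finger transcription factors made from br, an early gene of the response to the moulting hormone ecdysone, and wandering larvae are close to pupariation. Which zinc fingers the tagged form carries was not established here, and whole larvae mix all tissues.

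Of the 12 summits that the optimal list placed near members, 9 lay between genes or in introns, and the sequence around these 9 is shown here. A summit is the position of highest signal within a region, as deposited. Each line below gives up to 101 bases around the summit, read on the strand of the named gene from the RefSeq copy of the dm6 assembly and cut short where an exon begins. The other 3 summits, of ND-MWFE, SdhD and ATPsynbeta, lay in UTRs and are not shown. The summit is base 12 for ND-42 and base 51 for the others. Capitals mark any of 10 words sought on both strands, so that a word can also stand as its reverse complement. Those found were the TATA box word TATAAA, the Broad word of zinc finger form Z3, which is AAACTA, that of form Z2, which is CTATTT, and the E-box word CAGCTG. In ND-SGDH the Z2 word overlaps the reverse complement of the TATA box word. A match to a word is a description of the letters and does not show a bound site.
ND-ASHI (chrX:6679324-6679424, minus strand): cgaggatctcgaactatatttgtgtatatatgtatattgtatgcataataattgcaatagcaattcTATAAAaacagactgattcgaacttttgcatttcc
ND-75 (chrX:8252432-8252532, minus strand): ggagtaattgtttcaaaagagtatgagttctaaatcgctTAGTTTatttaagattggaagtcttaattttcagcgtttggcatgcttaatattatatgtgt
ND-SGDH (chr3L:12138719-12138819, minus strand): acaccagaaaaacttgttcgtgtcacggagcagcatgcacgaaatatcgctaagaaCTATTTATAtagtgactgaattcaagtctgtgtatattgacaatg
COX7AL2 (chr2L:2196981-2197081, minus strand): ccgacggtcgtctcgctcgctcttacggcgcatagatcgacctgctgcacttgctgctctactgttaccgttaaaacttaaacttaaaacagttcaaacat
ND-42 (chr3R:22027481-22027542, plus strand): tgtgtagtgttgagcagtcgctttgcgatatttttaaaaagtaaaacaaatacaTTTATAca
ND-24 (chrX:17632200-17632253, plus strand): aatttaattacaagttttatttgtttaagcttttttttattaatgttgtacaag
ND-51 (chr2L:6062782-6062882, minus strand): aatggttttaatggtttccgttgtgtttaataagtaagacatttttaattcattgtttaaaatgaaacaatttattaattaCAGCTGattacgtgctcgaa
COX7B (chr3L:17425300-17425400, plus strand): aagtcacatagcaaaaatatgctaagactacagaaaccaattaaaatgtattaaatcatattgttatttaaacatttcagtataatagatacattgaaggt
ATPsynE (chr3R:14327806-14327906, plus strand): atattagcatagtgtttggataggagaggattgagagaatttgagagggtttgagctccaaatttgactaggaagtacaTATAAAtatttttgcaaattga

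The words found in these windows were mostly common ones. Within 100 bp of the summit TATAAA was present at 5 of the 12 members with a region in the optimal list (41.7%), against 33.6% of all 2510 nuclear summits of that list. AAACTA was at 3 of 12 (25.0% against 20.8%), CTATTT at 2 (16.7% against 20.4%) and CAGCTG at 3 (25.0% against 9.56%). The nuclear respiratory gene words, described in the account of promoter words, were at 1 of 12 (8.33% against 3.94%). None of the 12 windows held the Dref word TATCGATA (3.31% of all windows), the M1BP word GGTCACAC (1.51%), the E-box word CACGTG (2.11%), the word of Broad form Z4, which is GTAAACA (6.37%), or the Trl word GAGAGAG (5.58%). With 12 windows, 1 gene is a large share of each percentage.

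The authors deposited 3 kinds of dm6 list. Each replicate has a list of 30000 regions that reaches down to background strength, the pooled list has 27389 regions, and the optimal list has 2533. The optimal list was identical to the 2533 strongest regions of the pooled list. Regions were ranked within each list by the authors' signal value, with rank 1 the strongest, and the 2533 strongest of each replicate are called its top regions. A gene was counted as having a promoter summit when a summit lay within 1 kb of any of its annotated transcription start sites (TSSs).

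Among the strongest regions the members stood close to genes in general. Of the 87 members 12 had a promoter summit in the optimal list (13.8%), against a background of 13.5% of all protein-coding genes. The top regions of replicates 2, 3 and 4 gave 8, 16 and 11 members (9.2%, 18.4% and 12.6%), against 11.3%, 16.0% and 12.6% of all genes. The mean over replicates was 13.4% ± 4.65 (SD, n = 3) for members and 13.3% ± 2.42 for all genes, so the means differed by less than the spread between replicates. Taken apart, subunit genes had a mean of 17.5% ± 7.27 and L duplicates of 2.78% ± 2.41. In the top regions of every replicate there were 3 members (3.45%), ND-ASHI, ND-MWFE and ATPsynE, against 5.62% of all genes.

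In the full pooled list and in replicates 2 and 3, the subunit genes stood farther above genes in general than in the optimal list. The L duplicates again stood below. The pooled list placed a promoter summit at 51 of the 63 subunit genes (81.0%) and at 5 of the 24 L duplicates (20.8%), against 54.7% of all genes. All regions of replicate 2 gave 54 subunit genes (85.7%) and 5 duplicates (20.8%) against 59.0%, and those of replicate 3 gave 58 (92.1%) and 8 (33.3%) against 59.1%. In replicate 4 neither group stood apart, with 30 subunit genes (47.6%) and 11 duplicates (45.8%) against 46.5%. Over the 3 replicates the mean was 75.1% ± 24.0 for subunit genes, 33.3% ± 12.5 for duplicates and 54.9% ± 7.25 for all genes (SD, n = 3). The wide spread of the subunit genes comes from replicate 4 lying below the other two. All 3 replicate lists together placed a summit at 24 subunit genes (38.1%) and at 1 duplicate, COX7AL2, against 27.7% of all genes. This counts any summit within 1 kb of any TSS and not the same region in each list. For COX7AL2 the summit was 915 bp downstream of a TSS in replicate 2, and 242 and 818 bp upstream of a TSS in replicates 3 and 4.

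**Figure D1:**
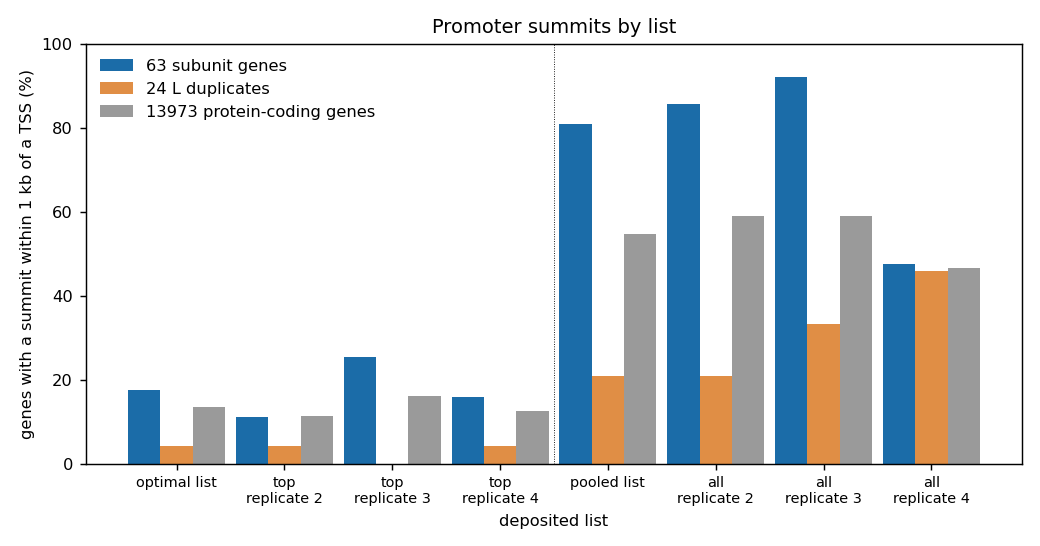
Percent of genes with a summit within 1 kb of a TSS (y axis) in each deposited list (x axis), for the 63 subunit genes, the 24 L duplicates and 13973 protein-coding genes. The bars left of the dotted line use the optimal list and the 2533 top regions of each replicate, those to the right use full lists. Subunit genes stand above all genes in the pooled list (81.0% against 54.7%) and in replicates 2 and 3, and beside them in replicate 4 (47.6% against 46.5%).

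The difference between subunit genes and all genes sat mostly in the middle of the pooled ranking. Of the subunit genes 17.5% had their strongest pooled summit at rank 2533 or better, 41.3% from rank 2534 to 10000, 22.2% lower and 19.0% none. The shares over all genes were 13.5%, 22.8%, 18.4% and 45.3%. Replicate 4 split differently: 15.9% of subunit genes were in its top regions against 12.6% of all genes, and 52.4% had no region at all against 53.5%. A region in replicates 2 and 3 but not in replicate 4 was found at 27 subunit genes (42.9%), against 20.6% of all genes. Subunit genes were shorter than genes in general (median 1178 against 2164 bp) and had a mean of 1.57 TSSs against 1.41, which gives slightly more windows per gene, and the part of either in these shares was not tested.

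Complex I, the largest of the complexes and the entry point of electrons from NADH, held 7 of the 12 members in the optimal list. They were 7 of its 34 subunit genes (20.6%, against 13.5% of all genes), and the pooled list held 29 (85.3% against 54.7%). Complex I also makes up 34 of the 63 subunit genes. The strongest region of any member lay at ND-ASHI, which encodes an accessory subunit of the membrane arm (chrX:6679255-6679462). Its summit was 256 bp upstream of ND-ASHI and 266 bp upstream of a TSS of Fum1, within an intron of Fum1. That gene encodes fumarase of the citric acid cycle and is read in the other direction. The region ranked 251 in the optimal list with a signal of 277, where the list runs from 88.3 to 1300 on nuclear chromosomes and has a median of 128. The matching region, with a summit within 200 bp, ranked 417 in replicate 2 (signal 103), 342 in replicate 3 (71.6) and 184 in replicate 4 (102). ND-ASHI was therefore among the top regions of every replicate and showed no replicate that stood far from the others in rank.

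The region of ND-MWFE, another accessory subunit of the membrane arm (chr2R:13158238-13158641), ranked 906 with a signal of 151. It ranked 1997, 1819 and 486 in replicates 2, 3 and 4, with signals of 49.8, 36.7 and 61.8, so that all 3 replicates had it among their top regions and replicate 4 had it highest. Its summit lay 226 bp upstream of ND-MWFE but only 5 bp from the TSS of TppII, which encodes a tripeptidyl peptidase. ND-75 encodes the largest iron-sulphur subunit of the arm that takes up NADH. Its region (chrX:8252280-8252683) ranked 932 with a signal of 150, and ranked 850, 1593 and 3138 in replicates 2, 3 and 4, with signals of 74.7, 38.8 and 20.6. The summit was 795 bp upstream of ND-75 and 188 bp upstream of CG1632, so it was far nearer to the neighbour.

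ND-SGDH, an accessory subunit of the membrane arm, had a region (chr3L:12138567-12138970) at rank 968 with a signal of 147. It ranked 2716 in replicate 2 (signal 42.6) and 552 in replicate 3 (57.8), and replicate 4 had no region at this summit. The summit lay 185 bp upstream of ND-SGDH. The remaining 3 were ND-42, ND-24 and ND-51. ND-24 and ND-51 encode the pair of flavoprotein subunits, of which ND-51 binds the flavin that receives electrons from NADH. ND-24 ranked 1182 (chrX:17632048-17632451), 71 bp upstream of a TSS of ND-24 and 203 bp upstream of corolla, a gene of the synaptonemal complex, and it had no match in replicate 4. ND-51 ranked 1293 (chr2L:6062630-6063033), 75 bp upstream of its TSS and 157 bp upstream of CG13994, with ranks of 2773, 869 and 1018 in replicates 2, 3 and 4. ND-42, an accessory subunit, ranked 1153 (chr3R:22027290-22027693), and its summit was 217 bp upstream of ND-42 and 12 bp upstream of Cchl, which encodes the lyase that attaches haem to cytochrome c.

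The complex I genes next in the pooled list were ND-MNLL, ND-B22 and ND-23. ND-MNLL lay just outside the optimal list, at rank 2901 with a signal of 82.0, and its summit was 46 bp upstream of the TSS. It was in the top regions of replicate 4 (rank 2264) but not of replicate 3 (rank 2632) or replicate 2 (rank 7348, with a summit 831 bp into the gene's direction of transcription). ND-B22 followed at rank 3823, 27 bp upstream, with ranks of 7367, 3478 and 5360 in the replicates. ND-23, an iron-sulphur subunit of the core, was at rank 4025, 197 bp upstream, and had no region in replicate 2. At the other end, 5 of the 34 complex I subunit genes had no pooled region (14.7%, against 45.3% of all genes). They were ND-18, ND-19, ND-AGGG, ND-B14 and ND-PDSW, and ND-19 had none in any list. These and the other genes without a region were named after their values were seen.

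Complex II is succinate dehydrogenase, which also works in the citric acid cycle, and its 4 subunit genes were uneven. SdhD, a membrane anchor, was in the optimal list at rank 2261 (chr3R:23760567-23760970, signal 93.8), with a summit 169 bp upstream of its TSS within the 3′ UTR of udt and no other protein-coding TSS within 1 kb. It ranked 3408 in replicate 2 (signal 38.1), 829 in replicate 3 (50.3) and 12865 in replicate 4 (12.1), so replicate 3 alone had it among its top regions. SdhC, the other membrane anchor, stood at pooled rank 4546, and was in the top regions of replicates 2 (rank 2368) and 3 (rank 1493) but at rank 29600 in replicate 4. The summits of SdhC differed between lists, 371 bp upstream in replicate 2 and 966 bp downstream in replicate 3. SdhA, the flavoprotein that oxidises succinate, had a pooled region at rank 17889 and a top region only in replicate 3 (rank 2440). SdhB, the iron-sulphur subunit, had no region in the pooled list or in any replicate.

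Complex III had no member in the optimal list or in any replicate's top regions. Of its 6 subunit genes 3 had a pooled region, against 54.7% of all genes, and replicates 2, 3 and 4 had 4, 6 and 1. UQCR-14 ranked 6116 in the pooled list, 87 bp upstream of its TSS, and UQCR-C2, a core protein of the matrix side, ranked 8161, 82 bp upstream. UQCR-Q followed at rank 27244, near the foot of the list. None of these 3 genes had a region in replicate 4, where UQCR-11 was the one complex III subunit gene listed. With 6 genes and a background of 13.5%, a count of 0 in the optimal list does not set complex III apart.

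Complex IV is cytochrome c oxidase, whose catalytic subunits are mitochondrially encoded, so that the nuclear genes here encode the surrounding subunits. Of 8 subunit genes 1 was in the optimal list (12.5%, against 13.5% of all genes) and 6 in the pooled list (75.0% against 54.7%). COX7B ranked 1441 (chr3L:17425148-17425551, signal 119), with a summit between its own TSS, 127 bp away, and that of Sec3, a gene of the exocyst, 133 bp away. It ranked 2761, 792 and 2164 in replicates 2, 3 and 4. COX5A ranked 3897, 42 bp upstream, and was in the top regions of replicate 4 alone (rank 1677, against 7922 and 13087 in replicates 2 and 3). COX6B ranked 4151 and had no region in replicate 3, and COX8 ranked 6305 and had none in replicate 4. COX7A was in the top regions of replicate 3 (rank 1695, 50 bp upstream) but had no pooled region.

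Complex V, the ATP synthase, had 2 of its 11 subunit genes in the optimal list (18.2%, against 13.5% of all genes) and 10 in the pooled list (90.9% against 54.7%). Replicates 2 and 3 each had a region at all 11, against 59.0% and 59.1% of all genes, and replicate 4 at 5 (45.5% against 46.5%). ATPsynE, a subunit of the membrane part, ranked 1631 (chr3R:14327654-14328057, signal 111). The summit lay 788 bp downstream of its TSS, past the end of this short gene, and 195 bp upstream of spn-B, a gene of meiotic recombination read in the same direction. That region ranked 1294, 1746 and 3619 in replicates 2, 3 and 4. In replicate 4 the strongest region near ATPsynE was another one, at rank 875 and 32 bp from its TSS. ATPsynbeta, the catalytic subunit, ranked 2415 (chr4:1031641-1032044, signal 90.8), 21 bp upstream of one of its TSSs and 86 bp upstream of CG11076. It ranked 3854 in replicate 2 (signal 35.6), 2968 in replicate 3 (30.3) and 1605 in replicate 4 (30.2), so it was a top region of replicate 4 alone. Outside the optimal list, ATPsynCF6 of the peripheral stalk ranked 4956, with a summit 998 bp upstream of a TSS. In replicate 4 its strongest region was a top region at rank 1771, 64 bp upstream. ATPsynC of the rotating ring ranked 5893, 333 bp downstream of a TSS. ATPsynO, which joins the stalk to the catalytic head, ranked 6990, 34 bp downstream.

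**Figure D2:**
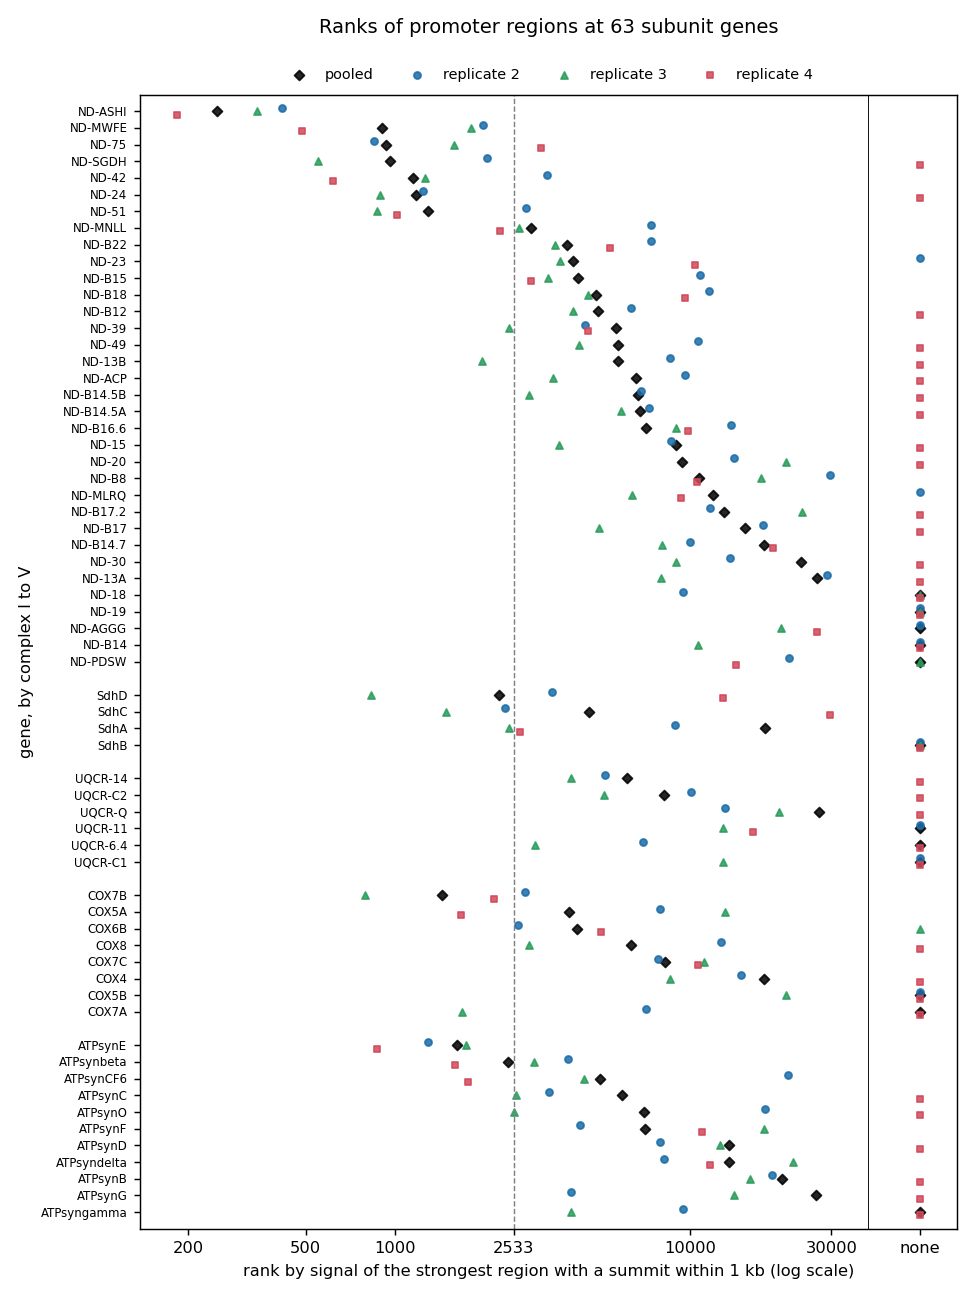
Rank by signal of the strongest region with a summit within 1 kb of a TSS (x axis, log scale, 1 is strongest), for each of the 63 subunit genes (y axis, in order of complex I to V and of pooled rank). Symbols give the pooled list and replicates 2, 3 and 4, the dashed line is rank 2533, and points at none have no such region. Replicate 4 has 33 genes at none, and most other points lie between ranks 2533 and 30000.

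The 12 optimal regions were a mixed set in their support and in their nearest gene. In the replicates 9 of them had a matching summit within 200 bp in all 3 lists, and 3 (ND-SGDH, ND-24 and COX7AL2) in 2 lists. The match was a top region in every replicate at 2 (ND-ASHI and ND-MWFE), in 2 replicates at 6 and in 1 replicate at 4. ATPsynE is not among the former because its top region in replicate 4 was a different one. Summits lay upstream of the member's nearest TSS in 10 of 12, and in 9 of these within 350 bp. At ND-24 and ATPsynbeta the summit was nonetheless inside the member gene, in an intron and in the 5′ UTR. Another protein-coding gene had a TSS within 1 kb of 10 of the summits, and that gene's TSS was the nearer one at 5: ND-MWFE, ND-75, ND-SGDH, ND-42 and ATPsynE. With fragments of 200 to 800 bp and TSSs this close, these lists cannot tell which gene of a pair a region belongs to. The same counts over all optimal regions are not given here, so those above describe the 12 and do not set them apart.

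**Figure D3:**
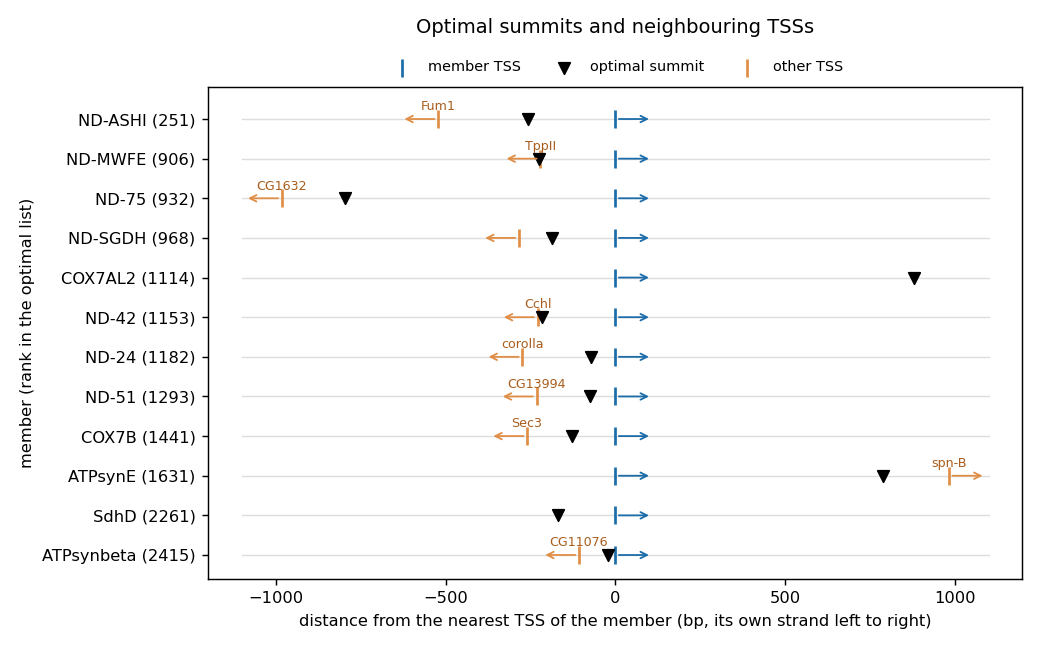
Position of the summit of the 12 members in the optimal list (triangles) relative to the nearest TSS of the member (blue bar at 0, arrow in the direction of transcription), with the TSSs of other protein-coding genes near the summit (orange). The x axis is distance in bp on the member's strand, rank in the optimal list is given after each name, and the neighbour of ND-SGDH is not labelled. In 9 of the 12, the summit lies upstream of this TSS of the member, near or between a pair of TSSs that point away from each other. At ND-24 and ATPsynbeta the summit is nonetheless inside the member gene.

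A shared, divergent promoter was common among the subunit genes. An opposite-strand TSS of another protein-coding gene lay within 1 kb upstream of 37 of the 63 (58.7%), against 35.2% of all genes and 4 of 24 L duplicates. Within such pairs 10 of 37 subunit genes were in the optimal list (27.0%), beside 23.8% of all paired genes, and outside them 1 of 26 (3.85%), beside 7.88% of the other genes. So in the optimal list subunit genes were near the level of genes of the same arrangement. In the pooled list paired subunit genes were at 78.4% (29 of 37) beside 69.7%, whereas unpaired ones were at 84.6% (22 of 26) beside 46.6%. Some partners also serve mitochondria. Besides Fum1 and Cchl, ND-B16.6 shares its promoter with kdn, which encodes citrate synthase, 228 bp away, and ATPsynD with mRpL55, a mitochondrial ribosomal protein gene, 95 bp away. The region between ND-B16.6 and kdn ranked 7074 in the pooled list and 13721, 8978 and 9849 were the best ranks near ND-B16.6 in replicates 2, 3 and 4.

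Pooled summits lay close upstream of the subunit genes. The median position of the strongest pooled summit was 87 bp upstream of the nearest TSS over 51 subunit genes, and 128 bp upstream over 7647 genes of all kinds. The summit lay within 100 bp of a TSS in 34.9% of subunit genes, against 14.8% of all genes, and 1 to 350 bp upstream in 57.1% against 30.4%. Counted over genes that had a pooled summit, the shares within 100 bp were 43.1% and 27.0%. Summits beyond 250 bp were at 22.2% of subunit genes and 23.3% of all genes, or at 27.5% and 42.5% of those that had a pooled summit.

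**Figure D4:**
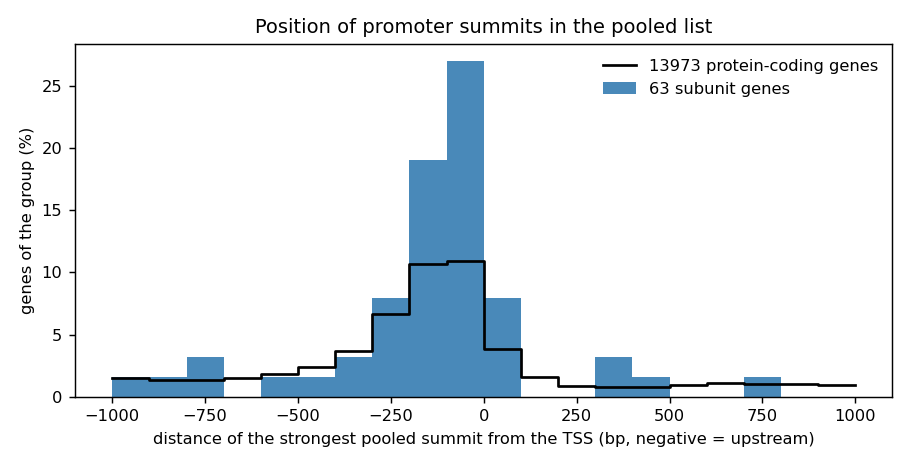
Distance of the strongest pooled summit from the nearest TSS (x axis, bp, negative is upstream, bins of 100 bp) as percent of all genes of the group (y axis), for 63 subunit genes (bars) and 13973 protein-coding genes (line). The subunit genes are above the line within 300 bp upstream and within 100 bp downstream, and near it farther away.

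The L duplicates, many of which are known to be expressed mainly in testis in flies, had few regions and weak ones. The exception was COX7AL2 at rank 1114 (chr2L:2196829-2197232, signal 136). Its summit lay 881 bp downstream of its TSS, in an intron of the gene, with no other protein-coding TSS within 1 kb. It ranked 349 in replicate 2 (signal 111) and 5747 in replicate 3 (22.5), where the summits were 197 bp apart, and replicate 4 had no match. Of the 3 replicates, this region was strong in replicate 2 alone. The other duplicates with a pooled region were UQCR-11L at rank 13884, UQCR-6.4L at 18190, ATPsynGL at 20431 and COX6AL2 at 23803, and none of these was listed in replicate 2. In replicate 4 the duplicates reached the level of other genes, with 11 of 24, of which 1 was a top region. The duplicates of complexes I and II had no pooled region, 9 genes in all.

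The letters of the promoters themselves, from 250 bases before to 50 bases after the annotated 5′ end of each gene, were compared with all promoters of that length. These shares describe sequence and not binding. The word GGTCACAC, which the zinc finger protein M1BP recognises, was in 15 of 63 subunit promoters (23.8%, exact 95% interval 14.0 to 36.2) against 7.69% of 13968 promoters. The interval covers counting error only. CAGCTG was in 30.2% against 17.6%, TATCGATA, the DRE core bound by Dref, in 14.3% against 9.36%, and TATAAA in 61.9% against 45.8%. The Broad words CTATTT (33.3% against 27.0%), AAACTA (36.5% against 27.3%) and GTAAACA (9.52% against 9.19%) were at or slightly above the general level. The nuclear respiratory gene words TTACGTAA, TTATATAA and TTACATAA were in 7.94% against 5.18%, and CACGTG in 3.17% against 4.2%. GAGAGAG, bound by Trl, was in none of the 63, against 5.86%. Promoters of subunit genes had a median of 34.3% G and C against 38.0%, which moves with the share of words rich in A and T, and its part was not tested.

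The GGTCACAC words sat near the start of the genes. There were 16 in 15 subunit promoters, 14 of them within 100 bp of the annotated 5′ end, with a median position 14.5 bp upstream of it. The sites below are those of 11 genes, each read on the strand of the word, with the word in capitals and 8 bases on either side, from the RefSeq copy of dm6. They are shown for the bases around the word, since the word itself was fixed by the search. In 11 of the 12 sites shown the next base is T, as in 14 of all 16 and in 77.2% of 1126 such words over all promoters.
ATPsynC (chr3R:31219781-31219804): actgttatGGTCACACtgcgccta
ATPsynD (chr3R:19094887-19094910): ctcgggtcGGTCACACtatcagct
ND-PDSW (chr2L:3466072-3466095): cacactgcGGTCACACtggcttcg
COX4 (chr2L:19958643-19958666): cgagatgtGGTCACACttctctgc
COX5A (chr3R:11819316-11819339): ttaattgcGGTCACACtgcatctt
ND-PDSW (chr2L:3466122-3466145): gaggtagtGGTCACACctatgccg
ND-B17 (chr2L:15751078-15751101): aagagtgcGGTCACACtggcggca
ND-18 (chrX:19492410-19492433): gctcgcctGGTCACACtggcactg
ND-13A (chr2L:5100264-5100287): cgatcagcGGTCACACtggttatt
COX7B (chr3L:17425478-17425501): aacacaacGGTCACACtgttcaac
COX5B (chr2L:6557804-6557827): tttaccgcGGTCACACtgatccat
ND-ACP (chr3L:1329974-1329997): gcgcatacGGTCACACtgctacct

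Subunit genes with GGTCACAC had fewer pooled summits than subunit genes without it. A pooled summit lay at 9 of the 15 (60.0%) and at 42 of the other 48 (87.5%). Over all genes the order was the other way, with 71.8% of genes with the word and 53.3% without it. Of the 12 subunit genes that had no pooled region 6 carried the word, among them SdhB, ND-18 and COX5B. In the optimal list 2 of the 15 genes with GGTCACAC were present, ND-MWFE and COX7B. These are small groups, and the differences between them were not tested.

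Other genes of mitochondrial respiration were taken from lists by function. Of 9 further subunit and cytochrome c genes outside the symbol rule, all 9 were in the pooled list, against 54.7% of all genes. In the optimal list there were 4 (44.4%, against 13.5% of all genes). They were Cyt-c-p (rank 261, but 940 bp from its TSS), Cyt-c-d (rank 565), blw, the alpha subunit of the ATP synthase (rank 844, 225 bp upstream), and levy, a complex IV subunit (rank 1551). For Cyt-c-p the strongest region of replicate 3 ranked 142, 933 bp downstream of a TSS. That of replicate 2 ranked 4776, 868 bp upstream of a TSS, and replicate 4 had none. blw ranked 1423, 1173 and 479 in replicates 2, 3 and 4. So both large catalytic-head subunits, blw and ATPsynbeta, were in the optimal list. Of 10 matched assembly genes 2 were in the optimal list (20.0%) and 6 in the pooled list (60.0%, near the 54.7% of all genes). CIA30, which helps build complex I, ranked 102 with a signal of 411, above every member, and ranked 210, 220 and 42 in the replicates. Cox17, a copper chaperone of complex IV, ranked 1977.

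The citric acid cycle list had 11 of 13 genes in the pooled list (84.6%) and 3 in the optimal list (23.1%). These 3 were Fum1, through the region shared with ND-ASHI, Idh3g, a subunit of isocitrate dehydrogenase (rank 540), and mAcon1, the mitochondrial aconitase (rank 664). The membrane carriers had 1 of 8 (12.5%, Ucp4A, rank 2179) and 6 of 8 pooled (75.0%). Of 15 regulators of mitochondrial genes 12 were in the pooled list (80.0%) and 3 in the optimal list (20.0%). These 3 were Dref (rank 1150), park, the ubiquitin ligase of mitochondrial quality control (rank 1383), and M1BP (rank 1922, 328 bp upstream). The shares over all genes were 13.5% in the optimal list and 54.7% in the pooled list. These lists are short, and each share moves by several percentage points with 1 gene.

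Of 2 other groups of housekeeping machines, the mitochondrial ribosomal protein genes resembled the subunit genes in the pooled list. They had 58 of 73 there (79.5%, against 54.7% of all genes) and 19 in the optimal list (26.0% against 13.5%). In full replicate lists they had 87.7%, 84.9% and 45.2% in replicates 2, 3 and 4, where all genes had 59.0%, 59.1% and 46.5%. Their promoters were more often divergent (79.5% against 58.7%), and CAGCTG was more frequent in them (54.8% against 30.2%), whereas GGTCACAC was less so (11.0% against 23.8%). The genes of the vacuolar proton pump, a rotary enzyme related to the ATP synthase, had 20 of 33 in the pooled list (60.6%) and 6 in the optimal list (18.2%), with 63.6%, 63.6% and 51.5% in full replicate lists.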

How the data were processed

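The 3 samples are biological replicates 2, 3 and 4 of 1 group, named by the number in the labels. The authors deposited narrowPeak lists of regions with a signal value, a −log10 q-value and a summit per region, for each replicate, for the replicates pooled, and for an optimal subset. The signal, as deposited, was used only to rank and describe regions within 1 list, and the deposited −log10 q-value was not used for any result. Which aligner and caller were used, and how the signal was normalized, is not given in the sources used here. Per the labels, lists exist for dm6 and dm3, and the dm3 lists were not analysed here. Since read depth is unknown, intervals cover counting error only.

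Genes and TSSs came from Ensembl release 115 (BDGP6.54, the dm6 assembly), sequence from the RefSeq copy of that assembly, and all region ends lay within its chromosomes. Coordinates are 1-based. Summits were placed within 1000 bp of any TSS of a gene, a region was matched between lists when summits lay within 200 bp, and the strongest region per gene was kept. Calculations used Python 3.11.15, pandas 2.3.3 and numpy 2.4.6, with exact binomial intervals from scipy 1.17.1, and counting and word search were checked on simulated data. There was no contrast, so no test was run, and each count is read against the share of all nuclear protein-coding genes.

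Members, lists, words and alternatives were chosen with earlier results of these data known. The text names every member in the optimal list, then per complex up to 3 further members in order of pooled rank, neighbours with a TSS within 1000 bp of a named summit (1 neighbour is not reported here), and values in every replicate for the 4 strongest and 2 weakest optimal members. Of the listed other genes, COX15 and Taco1 were not matched, Coa3 was matched by synonym, and Nc73EF repeats Ogdh. Alternatives were windows of 500 and 2000 bp, the gene's 5′ end alone, the nearest TSS alone, stricter and looser lists, regions overlapping a TSS, no L duplicates, and each replicate left out.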

Additional observations from a re-analysis of the deposited data

How the results depend on the processing

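The pooled count of 56 members stayed within 1.5 times under the alternatives tried for it. It ran from 43 with the upper 50% of the pooled list to 60 with a window of 2000 bp. These were 49.4% and 69.0% of members, against 42.0% and 63.6% of all genes. The optimal count of 12 fell to 7 when the member's own TSS had to be the nearest, to 7 with the upper 50% of optimal peaks and to 6 when the region had to overlap a TSS. All genes moved alike under these settings, to 9.52%, 7.18% and 7.63%, beside 8.05%, 8.05% and 6.9% of members. The mean share over replicates, 13.4%, became 7.28% with the own TSS nearest, 5.75% with 50% as many top regions and 63.6% with all regions. The count of 3 members in the top regions of every replicate became 6 with a window of 2000 bp and 0 with the own TSS nearest. It was 1 with 50% as many top regions and 25 with all regions (28.7%, against 27.7% of all genes). Without replicate 2, 3 or 4 it was 6, 4 and 7, since fewer lists must agree. These were 6.9%, 4.6% and 8.05% of members, beside 8.13%, 6.6% and 7.6% of all genes. The mean share ran from 10.9% without replicate 3 to 15.5% without replicate 2. The median distance of optimal summits from a member's TSS, 201 bp, was 597 bp for the 8 members in the top regions of replicate 2, 182 bp for the 16 of replicate 3 and 105 bp for the 11 of replicate 4, and the cause was not tested. With windows of 500 and 2000 bp the optimal count was 9 and 15 (10.3% and 17.2%, against 11.5% and 16.6% of all genes). The mean share with these windows was 10.7% and 18.0%. Word shares in windows at summits, with 12 windows, lay outside the exact 95% interval of the promoter share for 7 of 10 words. That interval leaves out the counting error of the 12 windows, which also differ from the promoters in length and genes. A rare word can easily be absent from 12 windows, so nothing is concluded from this comparison. No paired analysis was possible because there is 1 group. Without counts of reads, the precision of a single rank is unknown.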

Other observations

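The subunits of these complexes that are encoded in the mitochondrial genome fall outside the nuclear members. Of the 13 protein-coding mitochondrial genes, 9 held a summit in the optimal list, in the pooled list and in replicates 2 and 3, and 0 did in replicate 4. The lists held 23, 27, 23 and 36 mitochondrial regions in that order, and replicate 4 listed 0. Among the full replicate lists, the subunit genes in the nucleus were at 47.6% in replicate 4, against 46.5% of all genes. Whether the 2 are related was not tested.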
